A study of Mus musculus with 6 samples.

Results

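The p200 genes encode interferon-inducible nucleic acid sensors, and 9 of them were followed in bulk RNA sequencing of MCA205 tumors from mice given the kinase inhibitor FF-10101 or water. The members were taken by name and are *Ifi203*, *Ifi204*, *Ifi205*, *Ifi207*, *Ifi209*, *Ifi211*, *Ifi213*, *Mndal* and *Aim2*. They are 9 of the 54309 gene identifiers in the table, and all 9 passed the minimum mean of 10 normalized counts that 13963 genes passed. The remaining genes of the same family, *Ifi202b*, *Ifi206*, *Ifi208*, *Ifi214* and the pseudogene *Ifi203-ps*, were described beside them.

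MCA205 is a fibrosarcoma line that was induced with 3-methylcholanthrene in C57BL/6 mice. FF-10101 binds covalently to the kinase FLT3 and also inhibits CSF1R, the receptor through which macrophages receive their survival signal. Female C57BL/6J mice aged 7 weeks received 1000000 MCA205 cells under the skin of the right flank. From day 1, the FF-10101 group (3 mice) drank water with 0.1 mg/mL of the compound, whereas the control group (3 mice) drank MilliQ water. Whole tumors were collected on day 8 and hold tumor cells, macrophages and all other cells together, so that in these data fewer cells of a type and less RNA per cell cannot be told apart. The p values measure the spread between these tumors.

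Proteins of the p200 family carry a pyrin domain at one end in most members and HIN domains, which bind DNA, at the other. AIM2 senses double-stranded DNA in the cytosol and builds an inflammasome through the adaptor ASC and caspase-1, which matures interleukin-1 beta and opens the cell membrane. Several mouse relatives, IFI204 among them, have been tied to interferon induction through STING, and others act in the nucleus on transcription. Most genes of the family are themselves induced by interferons, whose signals reach genes at interferon-stimulated response elements (ISRE) and at gamma-activated sites (GAS). Myeloid cells, macrophages among them, are a main site of their expression.

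The 14 family genes lie in 1 cluster on mouse chromosome 1. In RefSeq (GRCm38.p6), their order was *Aim2*, *Ifi206*, *Ifi214*, *Ifi213*, *Ifi209*, *Ifi208*, *Ifi207*, *Ifi204*, *Ifi203-ps*, *Mndal*, *Ifi211*, *Ifi203*, *Ifi202b* and *Ifi205*, with 5 other annotated genes between them. *Aim2* and *Ifi205* thus form the ends of the cluster. The sequences before the start sites of the members are shown first. A core of the ISRE, written GAAANNGAAA and searched on both strands in the 250 bases before each RefSeq start, was found in 6 of the 8 members with an entry in the promoter table. *Ifi204* had no entry. Of all 32851 mouse promoters in that table, 978 (2.98%) held the same letters, as did 936 (3.46%) of 27025 genes. The windows below run 5′ to 3′ along the gene, and the capitals mark the match.
Ifi213, chr1:173599326-173599355, minus strand: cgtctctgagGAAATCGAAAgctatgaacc
Ifi207, chr1:173741831-173741860, minus strand: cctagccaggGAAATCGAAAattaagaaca
Mndal, chr1:173880204-173880233, minus strand: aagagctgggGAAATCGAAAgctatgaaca
Ifi203, chr1:173942508-173942537, minus strand: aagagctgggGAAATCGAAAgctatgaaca
Ifi211, chr1:173913064-173913093, minus strand: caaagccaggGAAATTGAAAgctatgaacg
Ifi205, chr1:174031870-174031899, minus strand: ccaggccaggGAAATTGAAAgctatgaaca

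The letters GAAATCGAAA occurred in 4 members and GAAATTGAAA in 2. The match began 35 bases before the start of *Ifi203*, 36 before *Mndal*, 37 before *Ifi211*, 41 before *Ifi207* and 73 before *Ifi213*, but 134 bases before the annotated start of *Ifi205*. *Mndal* and *Ifi203* shared the whole 30-base window, and their 250-base promoters were 97.5% identical over 239 aligned bases. A second annotated start of *Mndal* held a further match on the opposite strand, TTTCTCTTTC, 54 bases before it, whereas the 250 bases before a second annotated start of *Ifi203* held none. That second start lies upstream of the *Ifi203* match. An exon annotated in GENCODE vM21 reaches upstream of the matches in *Mndal* and *Ifi203*, but not of those in *Ifi207*, *Ifi211*, *Ifi213* and *Ifi205*.

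*Ifi209* had no match, but its promoter was 95.2% identical over 249 aligned bases to that of *Ifi214*, which had one. At the aligned position, 79 bases before the *Ifi209* start, 1 of the 10 bases differed, G1T, with *Ifi214* first and positions counted from the first base of the *Ifi214* match. The capitals below mark these aligned letters, which are not a match.
Ifi209, chr1:173630770-173630799, plus strand: aatctctgagTAAATCGAAAgagatgcact

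*Aim2* held neither the ISRE core nor a GAS core (TTCNNNGAA, both strands), which 7.02% of all promoters and 8.13% of genes held. None of the 8 members with an entry had the GAS core in its window, and of the family genes with a promoter entry *Ifi202b* alone had it. The stretches of *Ifi211* and *Aim2* are given for comparison, each ending before the first exon annotated in GENCODE vM21, with the ISRE core of *Ifi211* in capitals.
Ifi211, chr1:173913047-173913296, minus strand: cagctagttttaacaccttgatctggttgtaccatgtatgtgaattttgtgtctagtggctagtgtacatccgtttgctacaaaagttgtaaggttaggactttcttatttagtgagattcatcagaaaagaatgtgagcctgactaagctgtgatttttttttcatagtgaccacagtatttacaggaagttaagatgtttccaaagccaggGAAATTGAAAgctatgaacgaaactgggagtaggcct
Aim2, chr1:173420354-173420570, plus strand: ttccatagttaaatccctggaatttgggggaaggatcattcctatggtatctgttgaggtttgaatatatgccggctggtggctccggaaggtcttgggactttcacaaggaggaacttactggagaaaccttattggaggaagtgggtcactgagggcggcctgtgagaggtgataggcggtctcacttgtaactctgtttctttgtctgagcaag

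A match here describes letters in a window. Binding of a factor was not measured, and a window without a match says only that these letters are absent from it.

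Total reads per tumor were 9143806 to 9643535 in the control group and 9277019 to 13258258 in the FF-10101 group. One tumor stood apart over the genes as a whole. Across the 13963 genes tested, control tumor 1 correlated with the other control tumors at r = 0.929 and 0.916, whereas its r with the FF-10101–treated tumors was 0.952, 0.961 and 0.957, and control tumors 2 and 3 correlated with each other at 0.975. The members and most genes named with them are therefore given with all tumors and without control tumor 1. That tumor was picked from the same expression values, as the control most like the treated tumors. It was also the highest control for all 9 members, so leaving it out raises each of their fold changes. The adjusted p values without it depend on that choice and are not a separate test.

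Members of the family were compared by the log2 fold change of FF-10101–treated over control tumors, computed on log2(normalized count + 1), where a normalized count corrects the reads of a tumor for its size factor. With all 6 tumors, none of the 9 members passed an adjusted p of 0.05 in limma. Of all genes tested 6 (0.0430%) did, of which 4 (0.0286%) were higher in the FF-10101 group. In limma-voom run on the recovered reads, no member and 5 of all genes passed. With limma array weights, which give each tumor its own weight, all 9 members passed, but so did 8365 of the 13963 genes. At an unadjusted p under 0.05 in limma, 5 of the 9 members (*Ifi203*, *Ifi205*, *Ifi209*, *Ifi211* and *Mndal*) were higher and none was lower, against 1224 genes (8.77%) that were higher and 7.49% that were lower among all genes. The log2 fold change was positive in 8 members and negative in *Aim2*, where it turned positive without control tumor 1, and the median over the 9 members was 0.79, beside 0.02 over all genes tested. Without control tumor 1, 7 of the 9 members passed the adjusted threshold and were higher, when 1672 of all genes (12.0%) were higher and 9.88% were lower past it, and the median of the members was 1.15, beside 0.04 over all genes. *Ifi207* and *Aim2* did not pass in the unweighted fit with all tumors or in that without control tumor 1. Every tumor of the FF-10101 group lay above every control tumor for 2 members, *Ifi211* and *Mndal*, and for 10.9% of all genes. No member had every treated tumor below every control, a pattern seen in 9.37% of all genes. With 3 tumors against 3, a two-sided exact permutation test cannot give a p below 0.1, which *Ifi211* and *Mndal* reached.

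**Figure D1:**
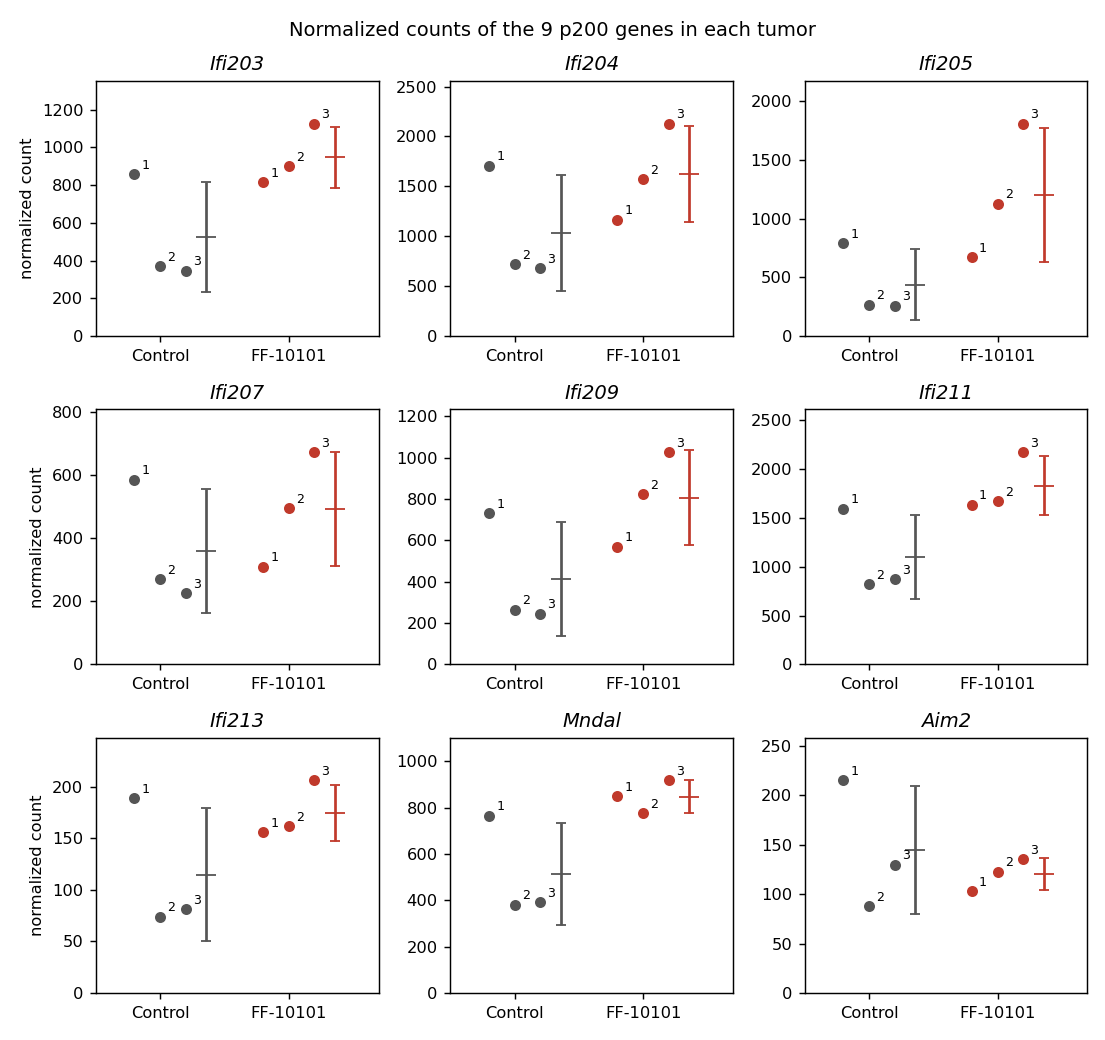
Normalized count of each of the 9 p200 genes (vertical axis, starting at 0 and scaled to each gene) in the 3 control tumors (gray) and the 3 FF-10101–treated tumors (red), with tumor numbers beside the points and the mean ± SD of each group as a bar. Control tumor 1 is the highest control for all 9 genes, and for *Ifi205* it lies at 788 beside 265.2 and 257.3.

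*Ifi205* had the largest difference of the 9. Its protein, a pyrin and HIN domain protein first known from hematopoietic cells, has been linked to inflammasome gene regulation in macrophages. Normalized counts were 788, 265.2 and 257.3 in control tumors 1 to 3 and 672.1, 1126 and 1809 in FF-10101–treated tumors 1 to 3. The groups overlapped, since control tumor 1 lay above FF-10101–treated tumor 1, while the other controls lay below all treated tumors. The means were 436.8 ± 304.1 (SD, n = 3) and 1202 ± 572.2 (SD, n = 3), for a log2 fold change of 1.55 (SE 0.49, 95% CI 0.41 to 2.70, adjusted p = 0.238 from limma). Without control tumor 1 the log2 fold change was 2.08 with an adjusted p of 0.00694 in limma, so that *Ifi205* passed.

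*Ifi209* (also Pyhin1) encodes a further pyrin and HIN domain protein, and it had the next largest difference. Its normalized counts were 732.8, 264.1 and 246.3 in the control tumors and 569, 825.1 and 1028 in the FF-10101–treated tumors. The order of the tumors was that of *Ifi205*, with control tumor 1 above treated tumor 1 only. Its log2 fold change was 1.11 (SE 0.42, 95% CI 0.13 to 2.09, adjusted p = 0.274 from limma) and 1.62 without control tumor 1 (adjusted p = 0.00456).

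*Ifi203* is a large member with many annotated transcripts. It was measured at 858.9, 369.5 and 346.1 normalized counts in the control tumors and at 814.9, 900 and 1127 in the FF-10101–treated tumors. Control tumor 1 lay among the treated tumors, and control tumors 2 and 3 lay below all of them. The log2 fold change was 0.97 (SE 0.34, 95% CI 0.18 to 1.76, adjusted p = 0.254 from limma) and 1.39 without control tumor 1 (adjusted p = 0.00228).

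*Mndal*, whose human relative MNDA marks myeloid cells, and *Ifi211* are neighbors that overlap in the annotation. *Mndal* had 765.4, 380.3 and 391.6 normalized counts in the control tumors and 848.5, 776.2 and 917.3 in the FF-10101–treated tumors. *Ifi211* had 1593, 823.7 and 874.1 in the control tumors and 1636, 1672 and 2175 in the treated tumors. For both genes all treated tumors were above all controls, but control tumor 1 came within a small distance of the lowest treated tumor. For *Mndal*, the log2 fold change was 0.80 (SE 0.27, 95% CI 0.17 to 1.43, adjusted p = 0.249 from limma), and without control tumor 1 it was 1.13 (adjusted p = 0.00249). For *Ifi211* it was 0.79 (SE 0.27, 95% CI 0.18 to 1.41, adjusted p = 0.245 from limma), and without control tumor 1 it was 1.09 (adjusted p = 0.00448). The treated tumors were close together for *Mndal*, with a mean of 847.3 ± 70.55 (SD, n = 3).

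*Ifi204*, which encodes the p204 protein described as a DNA sensor upstream of STING, reached 1705, 720.5 and 678.9 normalized counts in the control tumors and 1166, 1569 and 2129 in the FF-10101–treated tumors. Control tumor 1 exceeded 2 of the 3 treated tumors. The interval of the log2 fold change included 0 (0.74, SE 0.37, 95% CI −0.13 to 1.61, adjusted p = 0.36 from limma), and without control tumor 1 the value was 1.17 (adjusted p = 0.0125). *Ifi213*, a member with a pyrin domain, was at 189.1, 73.9 and 80.98 in the control tumors and at 155.8, 161.8 and 206.2 in the treated tumors. Here too control tumor 1 lay above 2 treated tumors, and the log2 fold change was 0.73 (95% CI −0.12 to 1.57, adjusted p = 0.357 from limma) with all tumors and 1.15 without control tumor 1 (adjusted p = 0.00964).

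*Ifi207* and *Aim2* stood at the low end of the differences. *Ifi207*, which encodes the longest protein of the 9, had 585.3, 269.5 and 225.2 normalized counts in the control tumors and 309.3, 494 and 672.9 in the FF-10101–treated tumors. The log2 fold change was 0.51 (SE 0.40, 95% CI −0.42 to 1.44, adjusted p = 0.549 from limma), and without control tumor 1 it was 0.92 (adjusted p = 0.0602), short of the threshold.

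*Aim2* had 215, 88.02 and 129.8 normalized counts in the control tumors (191, 81 and 117 reads) and 103.1, 122.7 and 135.1 after FF-10101 (135, 113 and 152 reads). The treated tumors lay inside the range of the controls. The means were 144.3 ± 64.72 and 120.3 ± 16.13 (SD, n = 3 each), and the log2 fold change was −0.17 (SE 0.33, 95% CI −0.94 to 0.59, adjusted p = 0.813 from limma). It turned to 0.16 without control tumor 1 (adjusted p = 0.665). With array weights, which give each tumor its own weight in limma, it was 0.40 (adjusted p = 0.0303). In that fit 8365 of all 13963 genes passed. The interval of the unweighted fit with all tumors does not reach a log2 fold change of 1 in either direction.

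**Figure D2:**
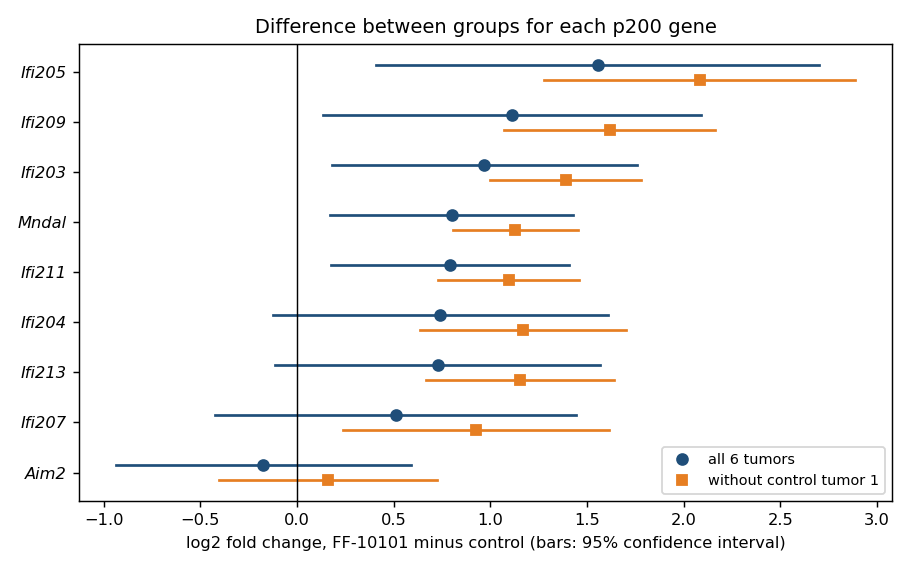
Log2 fold change of FF-10101–treated over control tumors (horizontal axis, on log2(normalized count + 1)) with its 95% confidence interval from limma, for all 6 tumors (blue circles) and without control tumor 1 (orange squares). With all tumors the values run from −0.17 for *Aim2* to 1.55 for *Ifi205*, and each value is higher without control tumor 1.

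Levels can be set against each other once divided by transcript length. On the scale of normalized counts per kilobase of median transcript length, *Ifi211* was the most abundant member in the control tumors (mean 614.6), followed by *Ifi204* (450.8), *Mndal* (288.5), *Ifi205* (270.8), *Ifi203* (145.6), *Ifi209* (120.5), *Ifi207* (109.6), *Aim2* (102.2) and *Ifi213* (42.8). Neighbors in this order differed by less than the larger of their SDs between control tumors, except *Aim2* and *Ifi213*. Within each control tumor, the order held among *Ifi211*, *Ifi204* and *Mndal*, among *Ifi205*, *Ifi203* and *Ifi209*, and from *Aim2* to *Ifi213*. It turned in 1 control tumor each between *Mndal* and *Ifi205*, between *Ifi209* and *Ifi207*, and between *Ifi207* and *Aim2*. In the FF-10101–treated tumors the order began with *Ifi211* (1024), *Ifi205* (745.2) and *Ifi204* (706), and it ended with *Ifi207* (149.8), *Aim2* (85.23) and *Ifi213* (65.15). *Ifi205* thus took a higher place, and the SD of its level between treated tumors was 354.7.

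The makeup of the family within each tumor was described as the share of each member in the summed normalized counts of the 9. That sum was 7433, 3255 and 3230 in the control tumors and 6275, 7646 and 10199 in the FF-10101–treated tumors, and the groups overlapped. The share of *Aim2* was 2.89%, 2.71% and 4.02% in the control tumors and 1.64%, 1.60% and 1.33% in the treated tumors, with no overlap. The share of *Ifi205* was 10.6%, 8.15% and 7.97% in the control tumors and 10.7%, 14.7% and 17.7% in the treated tumors. Its lowest treated value exceeded control tumor 1 by a small margin only.

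*Ifi204* had shares of 22.9%, 22.1% and 21.0% in the control tumors and 18.6%, 20.5% and 20.9% in the treated tumors. *Ifi207* had shares of 7.88%, 8.28% and 6.97% in the control tumors and 4.93%, 6.46% and 6.60% in the treated tumors. Both lay lower in every treated tumor, as *Aim2* did. A ratio to the summed family level that was lower in every treated tumor was found for 20.3% of all genes tested, and a ratio higher in every treated tumor was found for 1.53%, *Ifi205* among them. The shares of the other 5 members overlapped between the groups. In control tumor 1, whose sum lay within the range of the treated tumors, *Aim2* had a share above that of every treated tumor.

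**Figure D3:**
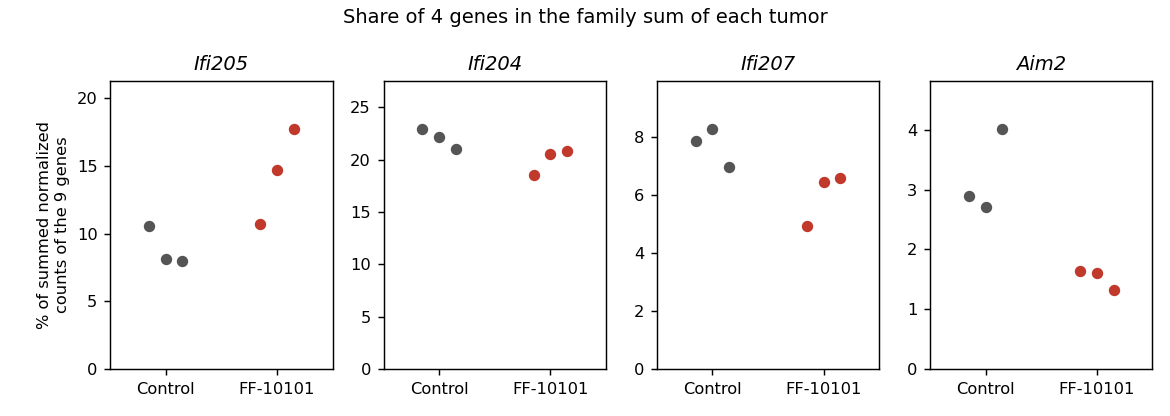
Share of *Ifi205*, *Ifi204*, *Ifi207* and *Aim2* in the summed normalized counts of the 9 p200 genes (vertical axis, percent, starting at 0 and scaled to each gene), 1 point per tumor, control in gray and FF-10101 in red. The *Aim2* share is 2.71% to 4.02% in control and 1.33% to 1.64% in FF-10101–treated tumors.

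Across the 6 tumors, 8 of the members followed 1 pattern and *Aim2* another. The Pearson correlation of each member with the mean of the others, on the log2 scale, was 0.47 for *Aim2* (n = 6 tumors). It was 0.92 for *Ifi207* and higher for the other 7, up to 0.99 for *Ifi209* and *Ifi204*. Control tumors 2 and 3 were the lowest tumors for all 8 of these members, a difference that their correlations share. The mean profile of the members, centered on the 6 tumors, was 0.43, −0.81 and −0.79 in the control tumors and 0.07, 0.37 and 0.74 in the treated tumors on the log2 scale. Treated tumor 3 was the highest, and control tumor 1 stood between treated tumors 2 and 3.

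Of 13028 protein-coding genes outside the family, those most like the mean profile were *Mt1*, *Cadm2*, *Spn*, *Ndrg1* and *Arhgap26*, with correlations of 0.994 to 0.997 over the 6 tumors. *Mt1*, a metallothionein, had 2695, 540.1 and 520.2 normalized counts in the control tumors and 1672, 2177 and 4194 in the treated tumors. The genes most like *Aim2* were *Tmem219* (0.992), *Crip1* (0.983) and *Gfi1* (0.980). These values describe likeness over 6 tumors and were not tested.

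The sequences of the family resemble each other, which bears on how reads were assigned. The share of the distinct 31-base words of each gene's transcripts that also occur in another family gene was 78.9% for *Ifi211* (49.5% with *Ifi205*), 46.9% for *Ifi209* (nearly all with *Ifi214*), 29.4% for *Ifi204*, 25.6% for *Ifi213*, 25.3% for *Mndal*, 22.1% for *Ifi205*, 20.7% for *Ifi203* and 13.7% for *Ifi207*. *Aim2* shared none with the family, but 5.26% with genes outside it. Reads within shared stretches are divided between genes by estimation, so the counts of these 8 members are uncertain, most of all those of *Ifi211* and *Ifi209*, while *Aim2* has no words in common with its relatives. *Aim2* overlaps *Cadm3* on the opposite strand without shared words. *Cadm3* had 45, 4 and 10 reads in the control tumors and 4, 45 and 185 in the treated tumors, an order that was not that of *Aim2*.

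Of the family genes outside the 9, *Ifi206* had 247.6, 51.08 and 43.26 normalized counts in the control tumors and 163.4, 190 and 315.5 in the treated tumors. Control tumor 1 was again within the treated range, and the log2 fold change was 1.37 (adjusted p = 0.326 from limma) and 2.16 without that tumor (adjusted p = 0.00372). *Ifi208* gave 0.79 (adjusted p = 0.425) and 1.30 without control tumor 1 (adjusted p = 0.0252 from limma), and *Ifi214* gave 0.53 (adjusted p = 0.619) and 0.89 (adjusted p = 0.206). The pseudogene *Ifi203-ps* had 3, 3 and 4 reads in the control tumors and 23, 10 and 8 in the treated tumors and lay under the minimum count. Without a minimum its log2 fold change was 1.38 (adjusted p = 0.422 from limma), and 42.9% of its 31-base words also occur in *Ifi203*. *Ifi202b* had 0 reads in every tumor, which allows up to 3 reads, or 2.29 to 3.38 normalized counts depending on the tumor.

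The partners of AIM2 in the inflammasome did not form a group of 1 direction. Of 9 genes, none passed the adjusted threshold in limma with all tumors, 3 were higher and 1 was lower at an unadjusted p under 0.05 (8.77% and 7.49% of all genes), and 4 were higher past the adjusted threshold without control tumor 1 (12.0% of all genes). Their median log2 fold change was 0.36, beside 0.02 for the 13963 genes tested, and 0.68 without control tumor 1, beside 0.04. *Pycard*, which encodes the adaptor ASC, had 1003, 599.9 and 718.8 normalized counts in the control tumors and 423.1, 488.5 and 547.5 in the FF-10101–treated tumors. All treated tumors were below all controls, and the log2 fold change was −0.64 (adjusted p = 0.245 from limma) and −0.44 without control tumor 1 (adjusted p = 0.095). *Casp1*, the protease that ASC recruits, had 439, 160.8 and 179.7 in the control tumors and 317.7, 340.9 and 429.3 in the treated tumors. Its log2 fold change was 0.62 (adjusted p = 0.427 from limma) and 1.08 without control tumor 1 (adjusted p = 0.00768).

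*Casp4*, the murine caspase-11 that senses lipopolysaccharide, was at 406.4, 198.9 and 211.9 in the control tumors and at 454.4, 491.8 and 592 in the treated tumors, a difference of 0.98 on the log2 scale (adjusted p = 0.229 from limma) and of 1.31 without control tumor 1 (adjusted p = 0.00286). *Mefv*, which encodes pyrin, gave 0.89 (adjusted p = 0.241 from limma) and 1.17 without control tumor 1 (adjusted p = 0.0111), and *Ninj1*, needed for membrane rupture, gave −0.40 (adjusted p = 0.317 from limma) and −0.27 without control tumor 1 (adjusted p = 0.235), with every treated tumor below every control. *Casp8*, a caspase that ASC can also recruit, gave −0.13 (adjusted p = 0.66 from limma) and −0.09 without control tumor 1 (adjusted p = 0.666).

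In the cGAS-STING pathway, the other main route of cytosolic DNA sensing, 0 of 13 genes passed the adjusted threshold in limma and 1, *Trim56*, was higher at an unadjusted p under 0.05, a share near the 8.77% of all genes. Without control tumor 1, 5 were higher past the adjusted threshold (12.0% of all genes). The median log2 fold change of the 13 genes was 0.17 (0.19 without control tumor 1). *Cgas*, the enzyme that makes cyclic GMP-AMP on DNA, had 106.9, 195.6 and 217.4 normalized counts in the control tumors and 146.6, 137.9 and 131.6 in the treated tumors, where control tumor 1 was the lowest of the 6. Its log2 fold change was −0.26 (adjusted p = 0.672 from limma) and −0.57 without control tumor 1 (adjusted p = 0.0542). *Sting1*, the receptor of that messenger, had 1835, 1057 and 830.8 in the control tumors and 1376, 1344 and 1371 in the treated tumors (log2 fold change 0.22, adjusted p = 0.707 from limma, and 0.54 without control tumor 1, adjusted p = 0.033). *Trim56*, a ubiquitin ligase of this pathway, was at 531.3, 445.5 and 317.2 in the control tumors and at 837, 960.8 and 1096 in the treated tumors, a difference of 1.18 on the log2 scale (limma adjusted p = 0.204), and there control tumor 1 lay with the other controls. Without it the difference was 1.35 (adjusted p = 0.00399 from limma). *Zbp1*, a sensor of Z-form nucleic acid, gave 0.69 (adjusted p = 0.318) and 1.08 without control tumor 1 (adjusted p = 0.00213), and *Irf3*, the transcription factor downstream of STING, gave −0.40 (adjusted p = 0.373 from limma) and −0.45 without control tumor 1 (adjusted p = 0.172). *Nlrx1*, a mitochondrial inhibitor of the route, gave −0.34 (adjusted p = 0.575 from limma) and −0.10 without control tumor 1 (adjusted p = 0.796).

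*Irf7*, the interferon-inducible partner of IRF3, had 2605, 886.8 and 743.2 normalized counts in the control tumors and 1488, 1976 and 2447 in the treated tumors. The log2 fold change was 0.69 (adjusted p = 0.466 from limma) and 1.25 without control tumor 1 (adjusted p = 0.00712).

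Among 10 cytosolic RNA sensors and effectors, 5 were higher at an unadjusted p under 0.05 in limma (8.77% of all genes), none passed the adjusted threshold with all tumors, and 7 passed it, all higher, without control tumor 1 (12.0% of all genes). Their median log2 fold change was 0.61 (0.90 without control tumor 1). *Ifit3* (log2 fold change 1.64, adjusted p = 0.229 from limma) and *Ifit1* (1.49, adjusted p = 0.229), which bind foreign RNA, had the largest differences, with every treated tumor above every control. They were at 2.22 without control tumor 1 (adjusted p = 0.000599 from limma) and 1.91 (adjusted p = 0.000884). *Mavs*, the adaptor of the RNA helicases, gave −0.16 (adjusted p = 0.671 from limma) and −0.13 without control tumor 1 (adjusted p = 0.645). Of 8 enzymes that break down or edit nucleic acids, 1 was higher and 1 was lower at an unadjusted p under 0.05 (8.77% and 7.49% of all genes), none passed the adjusted threshold in limma, and the median log2 fold change was 0.04 (0.38 without control tumor 1). The one that was higher was *Adar*, an RNA-editing deaminase (0.71, adjusted p = 0.29 from limma, and 1.06 without control tumor 1, adjusted p = 0.00359), so that no nuclease of the list was higher at that level. Without control tumor 1, 4 were higher and 1 was lower past the adjusted threshold, against 12.0% and 9.88% of all genes. *Samhd1*, which depletes nucleotides, gave 1.02 (adjusted p = 0.369 from limma), and *Dnase1l3*, a secreted DNase, gave 1.11 (adjusted p = 0.529). They gave 1.72 without control tumor 1 (adjusted p = 0.001 from limma) and 2.18 (adjusted p = 0.00548). *Rnaseh2c*, a subunit of RNase H2, gave −0.79 (adjusted p = 0.241 from limma) and −1.02 without control tumor 1 (adjusted p = 0.0137), with every treated tumor below every control, and *Rnaseh2a*, the catalytic subunit, gave −0.29 (adjusted p = 0.446).

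Of the 9 interferon genes listed, *Ifng* was the only one with a read. *Ifnb1*, *Ifna4*, *Ifna2*, *Ifna5*, *Ifne*, *Ifnk*, *Ifnl2* and *Ifnl3* had 0 reads in every tumor, which at this depth allows up to 3 reads per tumor for each. *Ifng*, the interferon of T and NK cells, had 130, 23 and 10 reads in the control tumors and 173, 106 and 212 in the treated tumors. In normalized counts these were 146.3, 24.99 and 11.09 against 132.1, 115.1 and 188.4, so that control tumor 1 lay within the treated range as it did for most p200 genes. The log2 fold change was 1.99 (adjusted p = 0.29 from limma) and 3.01 without control tumor 1 (adjusted p = 0.00272). The correlation of *Ifng* across the 6 tumors was 0.85 to 0.97 with the 8 other members and 0.37 with *Aim2*.

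Of 15 interferon receptors and signal transducers, 4 were higher and 1 was lower at an unadjusted p under 0.05 in limma (8.77% and 7.49% of all genes), and none passed the adjusted threshold. Their median log2 fold change was 0.43 (0.72 without control tumor 1). Without control tumor 1, 11 were higher and 1 was lower past the adjusted threshold (12.0% and 9.88% of all genes). *Irf1*, an interferon-inducible transcription factor, had 4856, 2518 and 2417 normalized counts in the control tumors and 6349, 4557 and 5107 in the treated tumors (log2 fold change 0.77, adjusted p = 0.263 from limma, and 1.10 without control tumor 1, adjusted p = 0.00461). Control tumor 1 lay above treated tumor 2, and the other controls lay below all treated tumors. *Stat2* gave 1.06 (adjusted p = 0.238 from limma) and 1.49 without control tumor 1 (adjusted p = 0.000906), with every treated tumor above every control. *Ifngr2*, a chain of the interferon-gamma receptor, gave −0.38 (adjusted p = 0.291 from limma) and −0.46 without control tumor 1 (adjusted p = 0.0461), with every treated tumor below every control, and the kinase gene *Tyk2* gave −0.19 (adjusted p = 0.68) and 0.02 without control tumor 1 (adjusted p = 0.946).

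**Figure D4:**
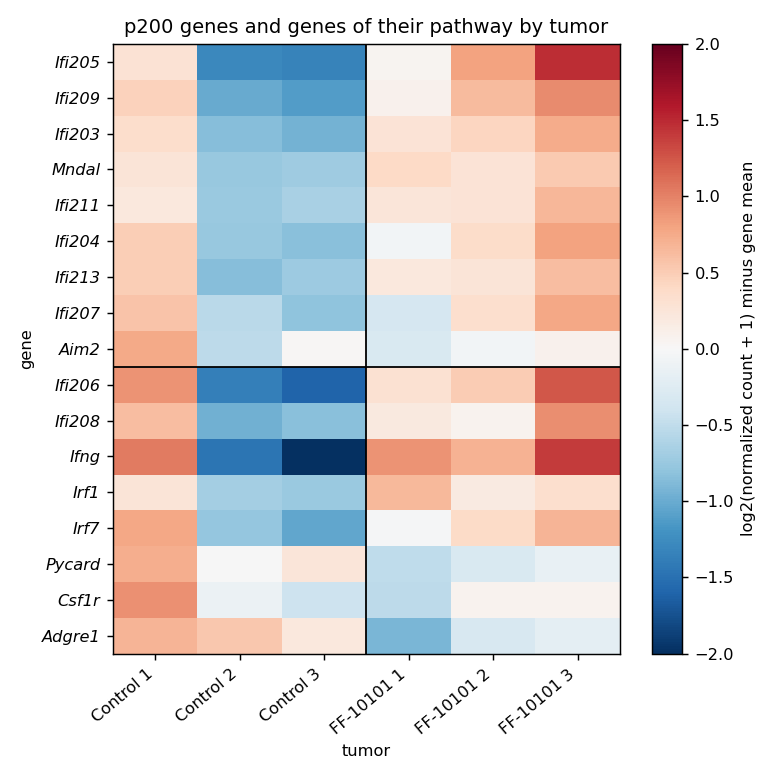
Log2(normalized count + 1) minus the mean of the gene over the 6 tumors (color scale, from −2 in blue to 2 in red) for the 9 p200 genes (above the horizontal line) and for related genes and macrophage markers (below it), 1 column per tumor. Control tumors 2 and 3 are blue for 8 of the p200 genes, control tumor 1 is red for all 9, and the rows of *Pycard* and *Adgre1* are blue in every treated tumor.

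Macrophages, which express p200 genes, were judged by their markers. The summed level of 8 macrophage markers was 35129 to 62269 normalized counts in the control tumors and 22438 to 31322 in the FF-10101–treated tumors, with no overlap, and none of the 8 was at 0 reads. The complement genes *C1qa*, *C1qb* and *C1qc* made up most of that sum and, with *Adgre1*, were the 4 of the 8 markers with every treated tumor below every control, a pattern of 9.37% of all genes. The other 5 markers summed to 17537, 9627 and 8119 in the control tumors and to 6515, 9825 and 10356 in the treated tumors, which overlapped. *Adgre1*, which encodes the macrophage marker F4/80, had 2995, 2708 and 2179 in the control tumors and 997.4, 1501 and 1634 in the treated tumors (log2 fold change −0.95, adjusted p = 0.229 from limma, and −0.85 without control tumor 1, adjusted p = 0.0309). *Csf1r*, whose kinase the compound inhibits, had 8961, 4388 and 3568 in the control tumors and 3295, 5006 and 5024 in the treated tumors (log2 fold change −0.25, adjusted p = 0.735 from limma, and 0.14 without control tumor 1, adjusted p = 0.658). Both are macrophage genes, yet their rank among the tumors differed, and *Csf1r*, *Cd68*, *Mertk* and *Fcgr1* overlapped between the groups.

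The sum of all 8 macrophage markers was thus highest in control tumor 1 and lower in all treated tumors than in any control. The sum without the C1q genes was also highest in control tumor 1, but it was not lower in all treated tumors. The correlation with *Csf1r* across the 6 tumors was 0.81 for *Aim2* and 0.32 to 0.72 for the other members, while with *Adgre1* it was 0.40 for *Aim2* and −0.55 to −0.01 for the others (n = 6). The sum of 5 neutrophil markers was 1664 to 1903 in the control tumors and 2256 to 3072 in the treated tumors, with no overlap, and 3 of the 5 genes (*S100a8*, *S100a9* and *Cxcr2*) had every treated tumor above every control, as had 10.9% of all genes. Sums of monocyte (4122 to 9227 and 5163 to 10889), T cell (590.1 to 1834 and 773.7 to 1728), NK cell (399.3 to 1435 and 847 to 1652), conventional dendritic cell (167.4 to 302.8 and 181.8 to 280), plasmacytoid dendritic cell (2195 to 5650 and 4747 to 5510) and B cell markers (46.15 to 68.46 and 39.08 to 71.11) overlapped between the control and the treated tumors. In the T cell and NK cell lists, control tumor 1 was the highest control for every marker. It was the highest control for the monocyte and dendritic cell sums as well, but not for every gene: the plasmacytoid sum was almost all *Bst2* (5611 normalized counts in control tumor 1), which interferons induce, and *Ccr9* (11.26, against 29.34 and 21.08) and *Cd209a* (20.26, against 56.51 and 61.01) were lowest in control tumor 1 among the controls. Without control tumor 1, all 4 NK cell markers, 4 of 5 neutrophil markers, 3 of 5 monocyte markers, 2 of 5 conventional dendritic cell markers, 1 of 6 T cell markers and 1 of 3 plasmacytoid dendritic cell markers were higher past the adjusted threshold in limma, as were 12.0% of all genes. In the same fit 2 of 8 macrophage markers (*Adgre1*, and *C1qc* at −0.55, adjusted p = 0.0422) and 1 monocyte marker were lower past it, as were 9.88% of all genes. The part of these cell types in the p200 differences was not tested.

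Markers of the tissue were present, as the 6 fibroblast or sarcoma markers summed to 65678 to 144450 in the control tumors and 90789 to 155599 in the treated tumors. Endothelial markers summed to 1053 to 3734 and 3667 to 4286, with all 3 higher at an unadjusted p under 0.05 in limma (median log2 fold change 1.19; 8.77% of all genes) and all 3 past the adjusted threshold without control tumor 1 (median 1.68; 12.0% of all genes), in the direction of the p200 genes. Without that tumor, 2 of the 6 fibroblast or sarcoma markers were also higher past that threshold, against the same 12.0%. Skeletal muscle markers summed to 1844 to 4023 and 1627 to 5594, and keratinocyte markers to 29.27 to 152 and 19.56 to 918.8, where treated tumor 1 alone was high. No list had a marker at 0 reads in all tumors, and the part of neighboring tissue in the p200 differences was not tested.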

How the data were processed

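Bulk RNA was sequenced from 3 control and 3 FF-10101–treated tumors. Per the submitters' processing notes, the authors used fastp (version 0.19.5), Salmon (version 1.5.1) and DESeq2 (version 1.22.1), with the GENCODE vM27 annotation. The authors deposited 1 table of log2 values without naming the transformation. Its values had the form of a variance-stabilizing transformation, and the inverse gave whole reads for every value within 0.001 read, with 1 size factor per tumor. The analysis was planned for normalized counts, which were recovered first. Salmon divides reads of similar genes by estimation, so counts of genes with shared sequence are uncertain.

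The 13963 genes averaging 10 or more normalized counts were tested with limma (version 3.58.1, R version 4.3.3; lmFit, eBayes with a trend) on log2(normalized count + 1), with group as the sole term and Benjamini-Hochberg adjustment over all of them. A fold change on this scale understates that of low genes. The code was tested on simulated data. Of the identifiers, 51484 of 54309 were named through GENCODE vM21 (GRCm38), which is not the authors' build. Beyond names and gene types, it served for transcript and coding lengths, shared words, exon positions and overlaps between genes. It did not enter the counts. Promoters came from RefSeq (GRCm38.p6). Total reads per tumor, 9143806 to 13258258, limit the precision of low genes, and a count of 0 allows up to 3 reads; this covers counting error only.

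The p200 members, gene lists and marker lists were chosen with earlier results of these data known. Named genes were the members, the other family genes, up to 2 genes in each direction with the largest fold change per list, *Cgas*, *Sting1*, *Pycard*, *Casp1*, *Ifng*, *Irf1*, *Irf7*, *Csf1r*, *Adgre1*, and the genes most correlated with the mean profile (5) and with *Aim2* (3). One gene named by this rule is not reported here. *Cadm3* was added because it overlaps *Aim2*. *Adar*, *Casp8* and the single markers beside *Csf1r* and *Adgre1* were named after their values were seen. *Sting1* is listed as *Tmem173* in vM21. Alternatives were other pseudocounts, minimums and scalings, array weights, limma-voom on recovered reads, the deposited log2 values, a replicate block and leaving out each tumor.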

Additional observations from a re-analysis of the deposited data

How the results depend on the processing

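The members kept their direction in every alternative tried except for *Aim2*, whose log2 fold change was −0.17 with all tumors, 0.40 with array weights (adjusted p = 0.0303 from limma) and −0.48 to 0.16 when 1 tumor was left out, the positive value being that without control tumor 1. Over the 17 alternatives, the limma adjusted p of *Aim2* ran from 0.0303 to 0.936, that of *Ifi205* from 1.2e-05 to 0.648 and that of *Ifi207* from 0.000445 to 0.905, with the other members' highest values at 0.648 to 0.77 and their lowest all with array weights. The number of members past the threshold was 0 with all tumors and 9 with array weights, where 8365 of all 13963 genes passed too. It was 0 to 7 when 1 tumor was left out, with 7 without control tumor 1, where 3051 of all genes passed. Of the 69 genes of the pathway lists, 0 passed with all tumors, 49 with array weights and 0 to 36 when 1 tumor was left out, the highest without control tumor 1. Over all genes, 6 passed with all tumors, 17 without a minimum count, 3 at a mean of at least 50, 8365 with array weights, and 1 to 3051 when 1 tumor was left out (3051 when it was control tumor 1, 1 when it was control tumor 2, and 3 when it was control tumor 3 or FF-10101–treated tumor 2). Array weights gave control tumor 2 a weight of 5.39 and FF-10101–treated tumor 2 a weight of 8.08. The other tumors had weights of 0.139 (control tumor 1) to 0.859 (treated tumor 3). The weighted fit thus rests mainly on control tumor 2 and treated tumor 2. The cause of these shifts was not tested, beyond the smaller number of tumors.

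Tumors share only a replicate number: the deviations of same-numbered tumors correlated at −0.288, −0.0397 and −0.277. With a replicate block, 1 gene and 0 members passed. Pseudocounts of 0.5 or 10, another scaling, limma-voom and the deposited log2 values changed no call of a member. At these depths, *Ifi202b*, *Ifi203-ps* and the type I interferon genes are at or near the limit of detection.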
